A study of Mus musculus with 2 samples.

Results

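The genes described here are 34 genes of glycolysis, of glucose and lactate transport and of the response to low oxygen, taken by symbol from the 32285 mouse genes of the count tables. They comprise 17 glycolytic enzymes counted up to and including lactate dehydrogenase, 4 sugar and monocarboxylate transporters, 3 regulators of glycolytic flux and 10 targets of the hypoxia response. The study implanted GL261, a mouse glioblastoma line, and dissociated tumour-bearing brain at day 24 for droplet single-cell RNA-seq of the tumour and its microenvironment. The host was labelled either C57BlL6 WT, a wild type mouse, or Cacna1H-/- (Cav3.2KO), a mouse lacking the gene of the T-type calcium channel Cav3.2, and the implanted line was labelled the same in both. The labels give 1 library for each genotype and do not say how many animals went into it, nor their age, so no test of genotype was possible and no value below carries a replicate error.

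Glycolysis splits glucose into pyruvate, and lactate dehydrogenase turns pyruvate into lactate, which leaves the cell through monocarboxylate transporters together with a proton. When oxygen is scarce, hypoxia-inducible factors escape degradation and switch on most genes of this route, among them glucose transporters, the exporter Slc16a3 and the pH regulator Car9. Glioblastomas contain poorly perfused, hypoxic regions, and macrophages and activated lymphocytes also rely on glycolysis, so the same genes are read out in tumour and host cells.

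Barcodes with at least 500 mouse genes and at most 10% mitochondrial counts were taken as cells. The library labelled wild type gave 3110 and the one labelled knockout 6575, with medians of 12522.5 and 11071 unique molecular identifiers (UMIs) per cell. Fixed markers placed 90.8% and 89.1% of them in a class. The 5 classes compared between the libraries held 666 and 1044 tumour-like cells, 625 and 1588 T cell-like, 264 and 612 NK cell-like, 303 and 406 dendritic-like, and 658 and 1063 monocyte/macrophage-like cells. In the tumour-like cells all 16 tumour markers stood above 10 CPM (UMIs per 1000000) in both libraries. The same markers chose these cells, so their presence follows from the selection and is no check of identity. Cacna1h itself went against the labels, with 13 UMIs (0.250 CPM) in the kept cells labelled wild type and 168 UMIs (1.67 CPM) in those labelled knockout. These are 3' tag counts, and the labels do not give the deleted part of the gene, so the libraries are named by their labels throughout, as the WT-labelled and the KO-labelled library. The host cells labelled knockout held both Xist-positive and Y-linked-positive cells, whereas those labelled wild type held only Y-linked-positive ones. Host sex thus differed along with the genotype label, and in summed host classes they cannot be told apart. In addition, 21 cell barcodes occurred in both libraries, 7 of them among the kept cells.

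CPM were computed over the mouse UMIs of a cell class in a library, and paired values give the WT-labelled library first. A gene was called higher or lower when the libraries differed by 1.5-fold and it had at least 100 UMIs in the class over both libraries. Intervals are exact 95% intervals that cover counting error only.

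In tumour-like cells the genes of this set were mostly lower in the KO-labelled library. Of 34, 31 had at least 100 UMIs, and 13 of these were at least 1.5-fold lower while 1 was higher. Over all 12449 genes measured in these cells, 6.99% were lower and 10.4% higher by the same rule. The median log2 ratio of the 31 genes (KO-labelled over WT-labelled library) was -0.54, and that of all genes was 0.0075. The 17 glycolytic enzymes summed to 4504 CPM in the WT-labelled library and 3166 CPM in the KO-labelled library. In these data fewer cells of a state and less RNA per cell cannot be told apart at the level of a summed class, and the split by cluster and by cell is given further on.

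**Figure D1:**
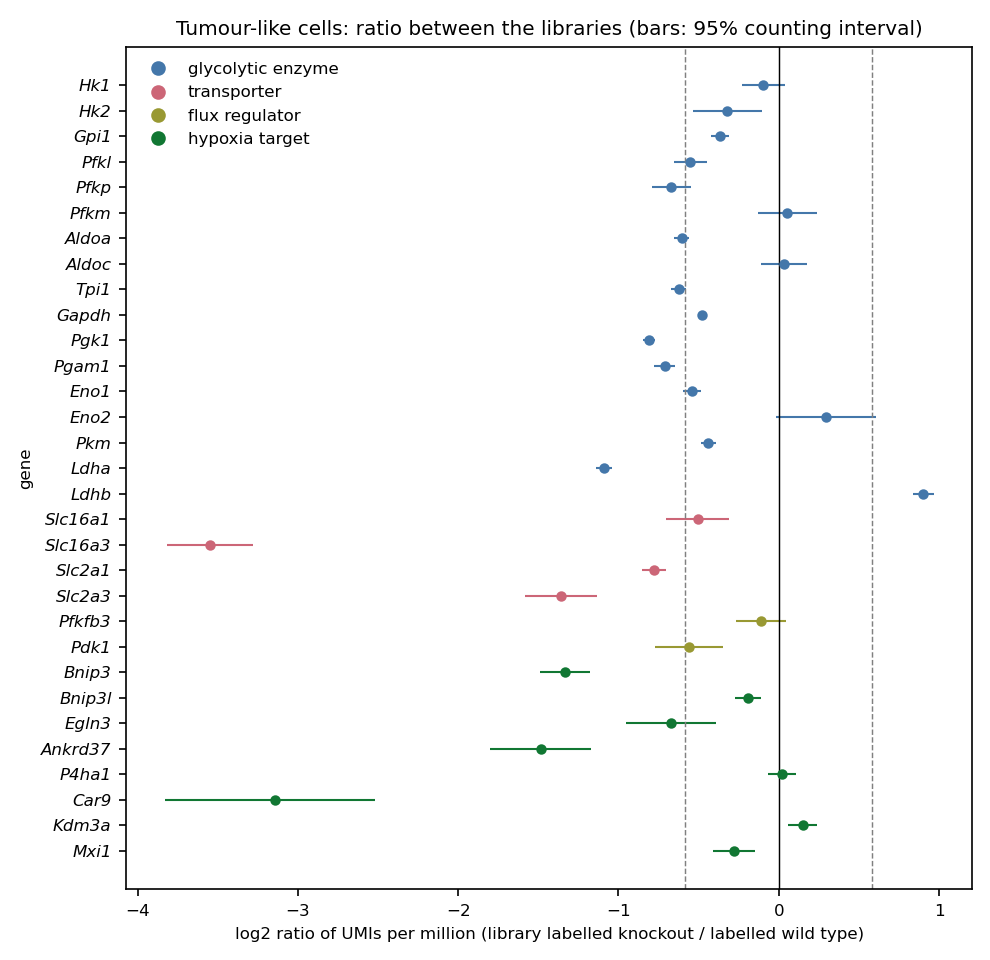
Log2 ratio of the level in tumour-like cells (library labelled knockout over library labelled wild type) for the 31 genes with at least 100 UMIs, coloured by role, with 95% counting intervals and dashed lines at 1.5-fold. Slc16a3 and Car9 lie farthest to the left, and Ldhb is the only gene right of the upper dashed line.

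The enzymes of the upper part of the pathway, which include the ATP-consuming steps, mostly differed by less than 1.5-fold. Hk1, the hexokinase of most tissues, stood at 38.9 CPM in the WT-labelled library and 36.4 CPM in the KO-labelled library, and Hk2, the inducible hexokinase bound to mitochondria, at 16.1 and 12.9 CPM. Glucose-6-phosphate isomerase, Gpi1, stood at 249 and 193 CPM. Among the phosphofructokinases, which catalyse the committed step, Pfkl was at 73.7 and 50.3 CPM, Pfkm at 19.4 and 20.1 CPM, and Pfkp at 56.3 and 35.4 CPM. Of these 6 genes only Pfkp passed 1.5-fold (1.59-fold lower, 1.46 to 1.73). Aldolase A, Aldoa, which splits fructose bisphosphate, had 349 and 229 CPM and was 1.52-fold lower, a value close to the threshold, while its paralog Aldoc had 31.3 and 32.0 CPM.

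Between aldolase and lactate dehydrogenase, 3 enzymes passed 1.5-fold. Triosephosphate isomerase, Tpi1, which interconverts the products of the split sugar, stood at 386 CPM in the WT-labelled library and 251 CPM in the KO-labelled library. The lower part of the pathway, which yields ATP, begins after Tpi1. Pgk1, the first ATP-generating enzyme, stood at 590 and 337 CPM (1.75-fold lower, 1.70 to 1.80) and Pgam1, phosphoglycerate mutase, at 188 and 115 CPM (1.64-fold lower, 1.56 to 1.71). Gapdh, the most abundant of the 34, had 1428 and 1023 CPM, Eno1 259 and 178 CPM, and pyruvate kinase Pkm 317 and 234 CPM, all of them lower by less than 1.5-fold. The neuronal enolase Eno2 was rare, at 6.28 and 7.70 CPM. Several of these genes have processed pseudogenes, and the sources used here do not give how reads shared with such copies were counted.

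The largest contrast among the enzymes was within the lactate dehydrogenase pair. Ldha, whose subunit favours the step from pyruvate to lactate, stood at 367 CPM (359 to 375) in tumour-like cells in the WT-labelled library and at 172 CPM (168 to 177) in the KO-labelled library, a 2.13-fold difference. Ldhb, whose subunit favours the reverse step, went the other way, from 127 CPM (122 to 132) to 238 CPM (232 to 243), and was the only gene of the set called higher. The Ldha share of the pair's UMIs was therefore 74.3% (73.4 to 75.1) in the WT-labelled library and 42.0% (41.2 to 42.9) in the KO-labelled library. The share was closer between the libraries in the host classes compared, at 98.0% and 97.3% in T cell-like, 99.4% and 99.1% in NK cell-like, 99.8% and 99.1% in dendritic-like and 92.4% and 91.8% in macrophage-like cells. The smaller plasmacytoid dendritic-like class had 93.3% (88.2 to 96.6) and 83.3% (80.1 to 86.2). Microglia-like cells, the brain's resident macrophages, used both genes about equally, with an Ldha share of 52.6% in either library.

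Among the transporters the lactate exporter Slc16a3 (MCT4; chr11:120948480-120960868 in GENCODE M21, mm10) had the largest difference of all 34 genes. It gave 1095 UMIs or 51.0 CPM (48.0 to 54.1) in the WT-labelled library and 131 UMIs or 4.37 CPM (3.65 to 5.18) in the KO-labelled library, 11.7-fold lower (9.73 to 14.1). Slc16a1 (MCT1), the widely expressed monocarboxylate transporter that carries lactate in either direction, stood at 19.9 and 14.0 CPM, a difference under 1.5-fold. The Slc16a3 share of the pair was 71.9% (69.6 to 74.1) and 23.7% (20.2 to 27.5), so the predominant transporter transcript of the pair differed between the libraries. Slc2a1 (GLUT1), the main glucose transporter of glial and endothelial cells, had 142 and 82.6 CPM, and Slc2a3 (GLUT3), the high-affinity glucose transporter known from neurons, had 22.0 and 8.599 CPM. These were 1.71-fold and 2.56-fold lower in the KO-labelled library.

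**Figure D2:**
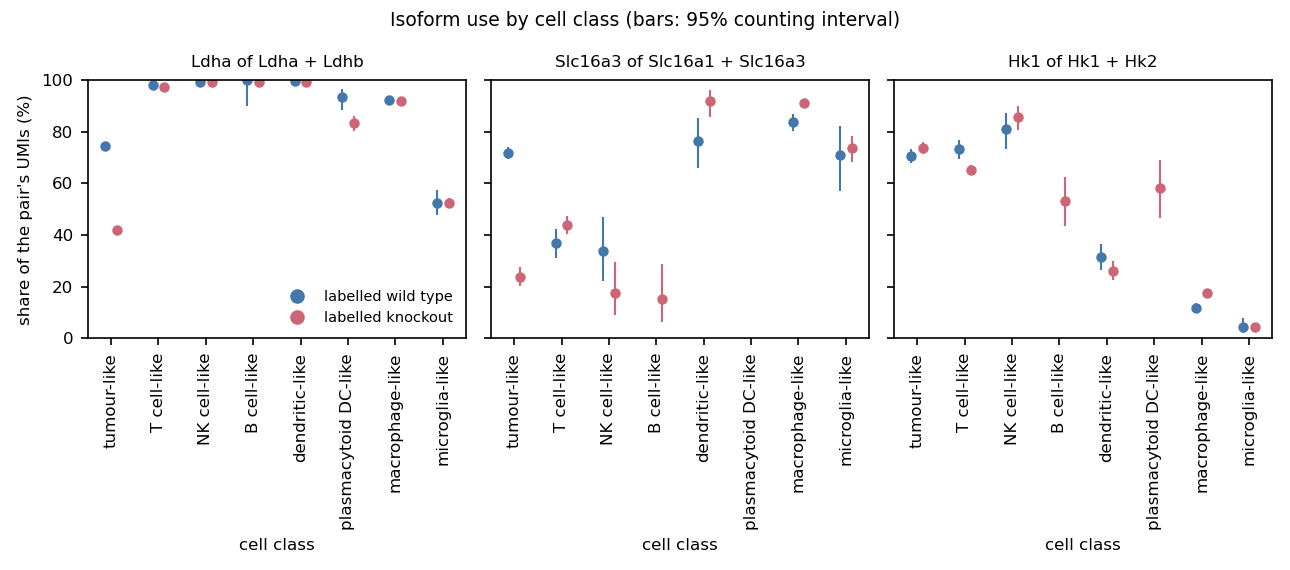
Share of a pair's UMIs held by Ldha, Slc16a3 and Hk1 in each cell class, for the library labelled wild type (blue) and labelled knockout (red), with 95% counting intervals, where a pair had at least 20 UMIs. The tumour-like points lie far apart for Ldha (74.3% and 42.0%) and Slc16a3 (71.9% and 23.7%) and close together for Hk1 (70.7% and 73.9%).

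No measured regulator of flux was called in tumour-like cells. Pfkfb3, which makes the activator of phosphofructokinase, stood at 28.4 and 26.3 CPM, and Pdk1, the kinase that keeps pyruvate out of mitochondria, at 17.8 and 12.1 CPM, neither past 1.5-fold. Pfkfb4 was barely detected, with 10 and 17 UMIs.

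Of the 10 hypoxia targets, 4 were lower, none was higher, and 2 were too rare to be measured. Car9, a membrane carbonic anhydrase that exports acid, gave 152 UMIs or 7.08 CPM in the WT-labelled library and 24 UMIs or 0.7999 CPM in the KO-labelled library (8.85-fold lower, 5.73 to 14.2). Ankrd37 was at 12.01 and 4.30 CPM (2.79-fold lower, 2.25 to 3.48) and Bnip3, which marks mitochondria for degradation, at 43.5 and 17.3 CPM (2.52-fold lower, 2.26 to 2.81). Egln3, the prolyl hydroxylase that is itself induced by the factor it helps to degrade, stood at 10.6 and 6.63 CPM. The other measured targets differed by less than 1.5-fold: Bnip3l, a mitophagy receptor like Bnip3, was at 106 and 92.7 CPM, the collagen hydroxylase P4ha1 at 83.0 and 84.0 CPM, the histone demethylase Kdm3a at 78.7 and 87.3 CPM and the MYC antagonist Mxi1 at 41.8 and 34.4 CPM. Adm, which encodes the vasodilator adrenomedullin, had 5 and 13 UMIs, and Ndrg1, a stress-responsive gene of myelinating glia, 16 and 21 UMIs. The measured hypoxia targets thus fell into 4 that were lower and 4 that were not called.

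Hypoxia-inducible factors bind a short core in DNA, most often spelled ACGTG. A second form of the core, GCGTG, was searched as well. The promoters of the genes with the largest differences are shown with these cores so that they can be compared with their paralogs. Each runs from 250 bases before to 50 bases after a RefSeq start (GRCm38.p6), 5′ to 3′ on the gene's own strand, and capitals mark either core on either strand. A palindromic CACGTG counts as overlapping matches on both strands.
Slc16a3, chr11:120948817-120949116 (+): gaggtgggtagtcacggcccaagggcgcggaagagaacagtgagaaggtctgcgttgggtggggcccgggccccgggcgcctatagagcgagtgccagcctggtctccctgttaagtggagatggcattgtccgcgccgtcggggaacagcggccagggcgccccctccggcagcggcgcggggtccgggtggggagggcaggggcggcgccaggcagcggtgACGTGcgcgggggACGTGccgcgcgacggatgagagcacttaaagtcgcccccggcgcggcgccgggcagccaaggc
Slc16a1, chr3:104638414-104638713 (+): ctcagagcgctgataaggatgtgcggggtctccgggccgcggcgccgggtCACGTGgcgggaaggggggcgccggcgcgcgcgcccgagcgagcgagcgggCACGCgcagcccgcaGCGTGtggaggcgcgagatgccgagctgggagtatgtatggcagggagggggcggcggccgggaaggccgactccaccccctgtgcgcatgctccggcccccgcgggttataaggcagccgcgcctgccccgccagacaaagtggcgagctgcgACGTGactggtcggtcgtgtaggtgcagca
Ldha, chr7:46845554-46845853 (+): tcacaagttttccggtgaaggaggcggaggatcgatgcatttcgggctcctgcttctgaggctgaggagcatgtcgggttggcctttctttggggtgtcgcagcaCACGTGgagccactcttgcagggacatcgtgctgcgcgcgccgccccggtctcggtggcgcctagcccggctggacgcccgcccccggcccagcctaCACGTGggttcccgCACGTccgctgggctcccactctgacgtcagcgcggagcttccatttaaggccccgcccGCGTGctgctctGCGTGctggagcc
Ldhb, chr6:142507908-142508207 (-): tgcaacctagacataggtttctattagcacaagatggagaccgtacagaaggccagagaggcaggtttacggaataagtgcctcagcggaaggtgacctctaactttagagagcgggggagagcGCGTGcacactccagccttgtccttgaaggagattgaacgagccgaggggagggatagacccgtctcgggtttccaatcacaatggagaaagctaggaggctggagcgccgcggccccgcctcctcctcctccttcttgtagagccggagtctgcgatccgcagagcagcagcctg
Car9, chr4:43506776-43507075 (+): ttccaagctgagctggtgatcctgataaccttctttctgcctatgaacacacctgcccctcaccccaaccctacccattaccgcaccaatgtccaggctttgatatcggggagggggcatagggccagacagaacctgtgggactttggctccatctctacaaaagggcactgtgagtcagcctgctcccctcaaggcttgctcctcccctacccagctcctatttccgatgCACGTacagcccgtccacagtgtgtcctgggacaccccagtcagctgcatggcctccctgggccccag
Bnip3, chr7:138909457-138909756 (-): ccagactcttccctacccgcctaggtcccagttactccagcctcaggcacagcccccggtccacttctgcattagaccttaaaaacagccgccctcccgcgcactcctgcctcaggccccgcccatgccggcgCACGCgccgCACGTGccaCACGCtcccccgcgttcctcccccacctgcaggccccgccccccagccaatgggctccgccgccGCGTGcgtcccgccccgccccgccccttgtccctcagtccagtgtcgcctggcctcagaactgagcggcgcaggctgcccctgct
Ankrd37, chr8:45999801-46000100 (-): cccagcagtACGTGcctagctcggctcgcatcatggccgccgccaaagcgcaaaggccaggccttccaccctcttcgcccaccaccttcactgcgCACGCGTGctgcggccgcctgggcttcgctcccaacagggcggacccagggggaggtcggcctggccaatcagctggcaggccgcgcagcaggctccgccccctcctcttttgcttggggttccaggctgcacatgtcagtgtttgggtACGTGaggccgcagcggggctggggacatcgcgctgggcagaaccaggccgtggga

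The promoter of Slc16a3 holds 2 matches, 27 and 14 bases before the start, and that of Car9 holds 1, 18 bases before it. Ldha, shown at the first of its 2 listed starts, holds 7 matches in this window (2 at the other start) and Ldhb 1. Slc16a1, which differed by less than 1.5-fold, holds 5, as does Bnip3, and Ankrd37 holds 4. Promoters were listed for 31 of the 34 genes (not for Slc2a3, Bnip3l and Ndrg1), and 28 of the 31 hold at least 1 match at some listed start. Among the 12 listed genes called lower in tumour-like cells 11 hold a match, and among the 17 listed genes measured and not lower 15 do. The share with a match is 46.7% over all 27025 genes in the table and 68.2% over the 9646 that were measured in tumour-like cells. The spellings differed: ACGTG is present in 10 of the 12 lower genes (83.3%) and 10 of the 17 others (58.8%), while GCGTG is present in 6 of the 12 and 12 of the 17 (70.6%). Over the 9646 measured genes they are present in 29.6% and 56.7%. A match is a description of the letters, not of binding.

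The spread of enzyme UMIs over single tumour-like cells differed between the libraries. To compare cells at equal depth, each was thinned at random to 5000 UMIs, which left 637 cells in the WT-labelled library and 967 in the KO-labelled library and left out 29 and 77. The UMIs of the 17 enzymes averaged 20.3 per cell (SD 15.8 over cells) in the WT-labelled library and 14.5 (SD 7.096) in the KO-labelled library, with medians of 16 and 14. At the upper end, 38 of 637 cells (5.97%, 4.26 to 8.10) in the WT-labelled library carried at least 50 enzyme UMIs and the highest carried 134. In the KO-labelled library 1 of 967 cells did (0.103%, 0.00262 to 0.575). Most cells of the libraries thus overlapped, and the long upper tail was seen in the WT-labelled library.

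**Figure D3:**
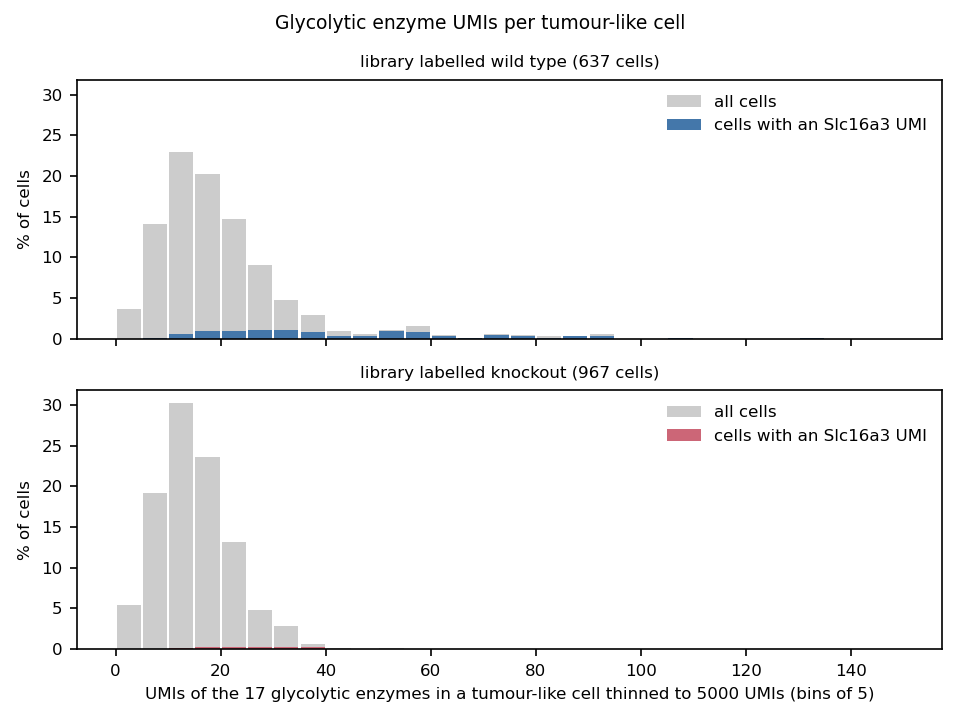
Percentage of tumour-like cells by their number of UMIs of the 17 glycolytic enzymes after thinning to 5000 UMIs, in bins of 5, for each library; coloured bars are cells with an Slc16a3 UMI. The upper panel has a tail beyond 50 UMIs (38 of 637 cells) that the lower panel lacks except for 1 of 967 cells.

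Most cells of that tail held an Slc16a3 UMI. After thinning, an Slc16a3 UMI was present in 66 tumour-like cells (10.4%, 8.10 to 12.99) in the WT-labelled library and in 15 (1.55%, 0.871 to 2.55) in the KO-labelled library. Without thinning the shares were 25.8% and 6.13%. Of the 38 WT-labelled cells with at least 50 enzyme UMIs, 26 held an Slc16a3 UMI. At 2000 UMIs per cell, the depth used to compare classes, the share was 6.04% and 0.593% (0.218 to 1.29) in tumour-like cells. NK cell-like cells, where the gene is scarce, had 1.53% and 0.331% (0.0401 to 1.19). Median depths before thinning were 30200 and 25573.5 UMIs in tumour-like and 5961 and 6411.5 UMIs in NK cell-like cells. At this depth the KO-labelled library's tumour-like share is within counting error of that in NK cell-like cells. The level of background was not measured. Before thinning, the richest KO-labelled tumour-like cell held 12 Slc16a3 UMIs.

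In the WT-labelled library, the 66 tumour-like cells with an Slc16a3 UMI carried 8855 CPM of the 17 enzymes and the 571 without carried 3516 CPM, which is 2.52-fold. Car9 stood at 54.5 CPM in the cells with it and 4.55 CPM in those without (log2 ratio 3.58, 2.47 to 4.73), on 18 and 13 UMIs. Bnip3 stood at 215 and 25.6 CPM (3.07, 2.58 to 3.56), Slc2a1 at 536 and 106 CPM (2.33) and Ankrd37 at 39.4 and 8.06 CPM (2.29, 1.19 to 3.33). Aldoc, Aldoa and Pfkl had log2 ratios of 1.88, 1.83 and 1.79, and Ldha, at 776 and 241 CPM, one of 1.68. Ldhb was not part of this pattern (115 and 144 CPM, log2 ratio -0.33, -0.85 to 0.16). Neither were Hk1 (0.27) and the hypoxia targets Mxi1 (0.50) and Kdm3a (0.32), whose intervals include 0. The interval of Egln3 (0.98, -0.78 to 2.41) included 0 too, on 5 and 22 UMIs. P4ha1 and Bnip3l, which differed by less than 1.5-fold between the libraries, were higher in these cells by 0.83 and 0.94. The cells with and without an Slc16a3 UMI had macrophage markers at 1795 and 1765 CPM and cell division markers at 2453 and 2307 CPM. Gpnmb, at 1646 CPM over all tumour-like cells of this library, made most of the macrophage sum. That sum therefore cannot show how much macrophage RNA these cells held. Oligodendrocyte markers were higher in the cells with it, at 1017 and 605 CPM, and their part in the result was not tested. Ptprc, the leukocyte antigen CD45, was detected in 9.09% and 8.23% of the cells. None of the 66 cells and only 2 of the 571 were called doublets, too few calls to compare the groups. The 15 cells in the KO-labelled library carried 5160 CPM of the enzymes against 2856 CPM in the other 952. A Ptprc UMI was found in 6 of the 15 and in 14.3% of the others. Ptprc was counted before thinning, at median depths of 45918 UMIs in the 15 cells and 26565.5 UMIs in the others. These shares are therefore not at equal depth. The part of leukocyte RNA in those 15 cells was not tested.

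Over single cells the linear and the rank correlation of enzymes with hypoxia targets differed. Over the 637 WT-labelled cells Pearson's r between the summed enzymes and the 10 summed hypoxia targets was 0.50, but Spearman's rho was 0.09. Over the 967 KO-labelled cells they were -0.11 and -0.10. Cells share their library and the thinned total, so these are descriptions. The UMIs of Slc16a3 and Bnip3 were concentrated: the 67 of 666 WT-labelled cells richest in each held 83.3% and 77.8% of its UMIs, compared with 35.7% for Gapdh and 41.8% for Ldhb. In the KO-labelled library the richest 105 of 1044 cells held 47.7% of Bnip3 and 34.4% of Gapdh UMIs. A set of 6 genes (Slc16a3, Car9, Bnip3, Ankrd37, Egln3 and Slc2a3) was chosen after their values were seen. All of them were called lower in KO-labelled tumour-like cells, so a lower share there follows from the choice. At least 2 of them were detected in 10.2% (7.96 to 12.8) of the thinned tumour-like cells in the WT-labelled library and 2.17% (1.35 to 3.30) in the KO-labelled library. In macrophage-like cells thinned to the same depth the shares were 8.93% (6.78 to 11.5) and 12.1% (10.2 to 14.3).

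Most tumour-like cells fell into 4 clusters, computed without the 34 genes, that were filled unequally: 255 and 435 cells in cluster 2, 56 and 380 in cluster 5, 239 and 100 in cluster 9 and 109 in either library in cluster 15. Within clusters 2, 9 and 15 the genes were lower in the KO-labelled library as well, 9 of 30, 11 of 28 and 15 of 28 measured, against 5.47%, 5.66% and 6.41% of all genes there. Slc16a3 was lower in each of these (log2 ratios -2.89, -2.76 and -3.77) and Ldha in each too (-0.75, -1.02 and -1.25). In cluster 5, where Ldhb was the main lactate dehydrogenase in both libraries (Ldha share 27.2% and 25.2%), 1 of 23 was lower (Pfkfb3) and 2 were higher (Aldoc and Slc2a1), against 6.86% and 6.69% of all genes there, and Ldha stood at 112 and 110 CPM. Slc16a3 had only 6 and 5 UMIs in cluster 5. Ldhb itself differed less within clusters than over the whole class, at 181 and 250 CPM in cluster 2, 299 and 325 CPM in cluster 5, 42.4 and 49.96 CPM in cluster 9 and 154 and 183 CPM in cluster 15. With the 4 clusters weighted alike Ldhb was 0.26 higher on the log2 scale and no longer passed 1.5-fold, and the enzymes' median log2 ratio was -0.30 in place of -0.48. Pfkp, Aldoa, Tpi1, Pgk1 and Pgam1 also came within 1.5-fold, while Pdk1 (-0.61) passed it, and 9 genes were lower in that setting. That count is not set beside a share of all genes, so its distance from the background is not given. With this weighting the Ldha share was 65.4% and 45.8%. Within clusters 2, 9 and 15 the Ldha share was 65.7% and 45.2%, 88.6% and 76.5%, and 76.0% and 52.9%, lower in the KO-labelled library in each.

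Cell division markers were higher in the WT-labelled library, where the 12 markers summed to 2317 CPM in tumour-like cells against 1421 CPM in the KO-labelled library. Among cells with fewer than 2 of these markers detected (207 and 463 cells) 5 of 28 measured genes were lower, against 5.91% of all genes. These were Ldha (223 and 131 CPM), Bnip3 (41.5 and 19.9 CPM), Slc2a1 (148 and 89.4 CPM), Slc2a3 (24.3 and 6.39 CPM) and Pfkp (58.5 and 35.2 CPM). Slc16a3 (21.0 and 2.24 CPM), Car9 (7.82 and 0.672 CPM) and Ankrd37 (8.36 and 3.70 CPM) had under 100 UMIs in those cells and were not counted. Aldoa, Tpi1, Pgk1, Pgam1 and Egln3 came within 1.5-fold there. Among cells with at least 8 markers (253 and 182 cells) the log2 ratio of Slc16a3 was -3.47, of Ldha -1.01 and of Pgk1 -0.70. The markers of other types in the tumour-like class moved too: the 12 oligodendrocyte markers summed to 657 and 310 CPM, the 10 astrocyte markers to 278 and 674 CPM, with Aqp4 and Gjb6 at 0 in the WT-labelled library, and the 20 macrophage markers to 1771 and 2611 CPM, of which Gpnmb made 1646 and 2477 CPM. The part of these 3 marker lists was not tested.

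The genes that control the hypoxia response stood near the same level in both libraries in tumour-like cells. Of 13 genes of the hypoxia-inducible factor machinery, a list chosen with the earlier results known, 11 were measured and none was called, with a median log2 ratio of 0.066. For this and the lists below, the shares over all genes measured in tumour-like cells were 6.99% lower and 10.4% higher. Hif1a, the oxygen-regulated subunit, stood at 87.9 and 88.8 CPM, and Rbx1, the ubiquitin ligase subunit with the most UMIs of the list, at 357 and 432 CPM. Among 24 measured further hypoxia targets 8 were lower and none higher (median -0.23). The largest differences there were P4ha2 (7.12 and 2.97 CPM), Vldlr (28.4 and 12.998 CPM), the adenylate kinase Ak4 (13.7 and 6.37 CPM) and the oxidoreductase Ero1l (145 and 68.6 CPM), while Plin2, the lipid droplet gene with the most UMIs, had 142 and 154 CPM. The list of 9 measured other transporters and chaperones had 1 higher (the bicarbonate transporter Slc4a4, 1.02 and 4.40 CPM) and 2 lower: Slc2a13, a myo-inositol transporter, with 52.2 and 14.9 CPM, and Emb, a chaperone of monocarboxylate transporters, with 17.3 and 6.07 CPM. Bsg, the main chaperone that brings Slc16a1 and Slc16a3 to the membrane, was level at 613 and 607 CPM. In the pentose phosphate pathway 1 of 9 was lower, the transketolase Tkt (135 and 69.5 CPM), and 1 higher, H6pd (2.75 and 4.47 CPM), while Taldo1 had the most UMIs (220 and 217 CPM). In pyruvate entry to mitochondria 2 of 11 were higher, Pdk2 and Pdp1, and Pdha1, a subunit of pyruvate dehydrogenase, stood at 154 and 131 CPM. In the citric acid cycle 2 of 20 were lower, Aco1 and Idh1, whose products are cytosolic, and Mdh2 stood at 286 and 221 CPM. Of 5 measured genes of MYC and its relatives 1 was higher, Mlxipl, and Myc stood at 70.2 and 56.2 CPM. None of 4 measured other isozymes was called, with Bpgm at 306 and 273 CPM. Tkt, H6pd, Pdk2, Pdp1, Aco1, Idh1 and Mlxipl are named because they make up these counts, after their values were seen. Lists with only 1 or 2 genes called in a direction are too short to be read against the shares over all genes.

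Among the host classes, NK cell-like cells had the most genes of the set called lower. There 8 of 20 measured genes were lower and none was higher, against 7.61% lower and 6.79% higher over all 6940 genes measured. Gapdh stood at 838 and 442 CPM, Ldha at 447 and 227 CPM, Pgk1 at 160 and 76.3 CPM, Tpi1 at 196 and 108 CPM and Pkm at 287 and 179 CPM, and Aldoa, Pgam1 and Ndrg1 were the other 3. The 17 enzymes summed to 3004 and 1891 CPM. The glucose transporters Slc2a1 (69.7 and 68.5 CPM) and Slc2a3 (36.0 and 36.3 CPM) were not called. Slc16a3 was scarce, with 21 and 11 UMIs (9.70 and 2.48 CPM), and of the 5 measured hypoxia targets only Ndrg1 was lower (26.3 and 17.1 CPM).

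The NK cell-like count depended on how the cells were chosen and weighted. Division markers summed to 751 CPM in the WT-labelled library and 157 CPM in the KO-labelled library in this class, and among the 232 and 577 cells with fewer than 2 of them 3 of 20 genes were lower. Those were Gapdh (658 and 420 CPM), Pgk1 (135 and 71.3 CPM) and Ldha (339 and 221 CPM). With each cell weighted alike 1 gene was lower, Pgk1, and with the class taken from clusters 4 were. Within the main NK cluster, which held 91.7% and 99.0% of the class, the same 3 genes were lower, by 0.68, 0.88 and 0.71 on the log2 scale for Gapdh, Pgk1 and Ldha. Of all genes measured in that cluster 4.32% were lower. The other counts of this paragraph are not set beside a share of all genes, so their distance from the background is not given. Compared with the WT-labelled library's Y-linked-positive cells, Ldha was lower by 1.71 in the 74 Y-linked-positive and by 0.96 in the 448 Xist-positive NK cell-like cells labelled knockout. Macrophage markers in the class summed to 941 and 1400 CPM, and their part in the result was not tested.

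In monocyte/macrophage-like cells more genes of the set were higher than lower. Of 31 measured genes 5 were higher and 1 lower, against 6.64% and 6.13% of all 9769 genes. Slc16a3 stood at 45.0 CPM (40.9 to 49.4) and 74.8 CPM (70.6 to 79.2), Tpi1 at 186 and 318 CPM, Pfkl at 44.8 and 70.9 CPM, Hk1 at 19.95 and 32.7 CPM and Egln3 at 5.61 and 16.4 CPM. Slc2a3 was lower (7.48 and 2.78 CPM), on 72 and 44 UMIs, and fell under the UMI minimum in cells with fewer than 2 division markers. Division markers in the class summed to 346 and 127 CPM. In the cells with fewer than 2 of them 5 of 30 measured genes were higher, against 6.38% of all genes, and none was lower. In Y-linked-positive cells alone Slc16a3 was 0.55 higher on the log2 scale, just under 1.5-fold. The largest enzymes were level, with Gapdh at 1484 and 1490 CPM and Ldha at 431 and 415 CPM. Slc16a3, Tpi1 and Egln3 were thus lower in tumour-like and higher in macrophage-like cells in the KO-labelled library, a difference between classes that could not be tested.

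Different clusters held most macrophage-like cells in the libraries. Cluster 3, led by C1qc, Ccl24 and H2-M2, held 56.99% of them in the WT-labelled library and 21.4% in the KO-labelled library, and cluster 1, led by Lyz2 and Arg1, held 32.2% and 57.5%. Within cluster 1, 2 of 28 measured genes were higher and 1 lower, against 5.59% and 3.95% of all genes there. Within cluster 3, 1 of 27 was higher and 1 lower, against 4.08% and 5.30%. These counts are near the background, and Ndrg1 was the lower gene in both. Slc16a3 was at 31.3 and 30.4 CPM within cluster 3 and at 79.7 and 105 CPM within cluster 1, so neither cluster passed 1.5-fold. Tpi1 was level in cluster 3 (159 and 165 CPM) and higher in cluster 1 (279 and 446 CPM), as was Pfkl (57.6 and 93.0 CPM). In macrophage-like cells thinned to 5000 UMIs, 115 of 605 (19.0%) in the WT-labelled library and 289 of 989 (29.2%) in the KO-labelled library held an Slc16a3 UMI. Those cells carried 7092 and 6655 CPM of the enzymes, against 3945 and 4528 CPM in the cells without. Macrophage-like cells with an Slc16a3 UMI thus carried more enzyme RNA than the others in both libraries.

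**Figure D4:**
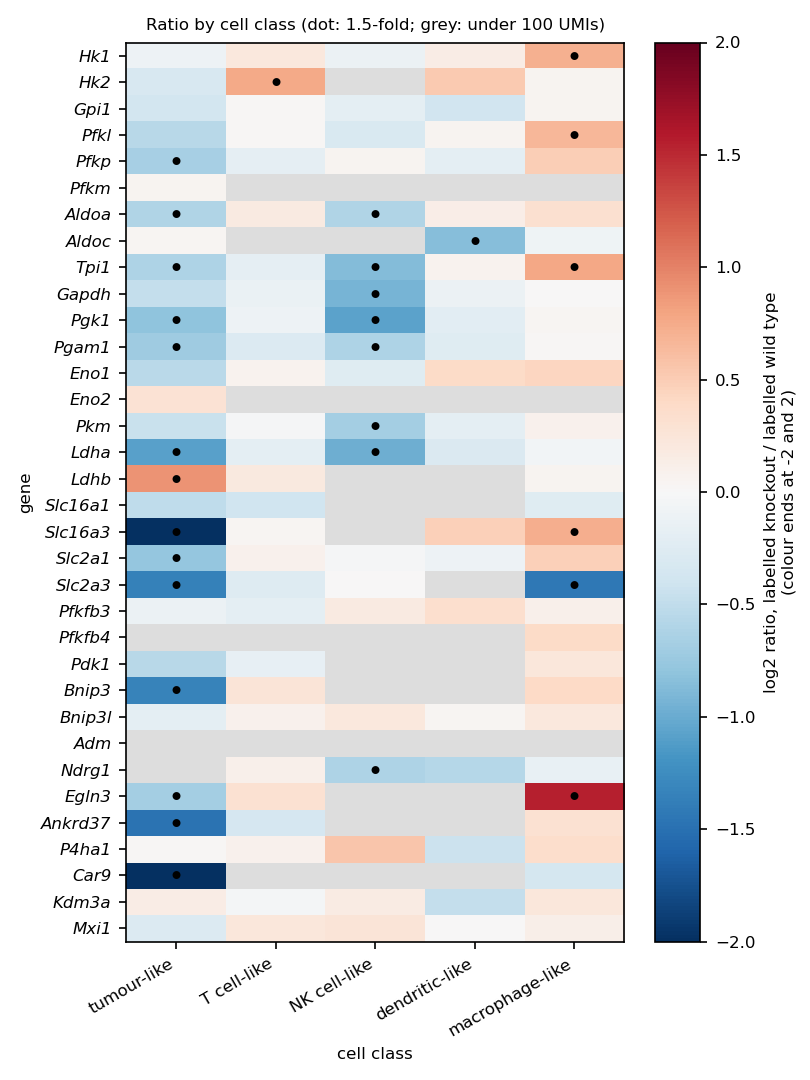
Log2 ratio (library labelled knockout over labelled wild type) of each gene in the 5 classes compared; red is higher and blue lower in the KO-labelled library, dots mark 1.5-fold, and grey cells had under 100 UMIs. The tumour-like column holds 13 lower genes, the NK cell-like column 8 and the macrophage-like column 1, with 5 higher.

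T cell-like and dendritic-like cells showed counts near the background. In T cell-like cells 1 of 28 measured genes was higher and none lower, against 4.34% and 2.56% of all 9967 genes. That gene was Hk2, at 26.5 CPM (22.5 to 31.0) and 44.9 CPM (41.7 to 48.2). Among Y-linked-positive cells alone its log2 ratio was -0.019 (-0.42 to 0.37). Ldha stood at 582 and 506 CPM in this class, and the 17 enzymes summed to 4402 and 4185 CPM. In dendritic-like cells 1 of 22 was lower, Aldoc (13.3 and 7.37 CPM), and none was higher, against 7.44% and 7.35% of all 7907 genes. The libraries filled the clusters of this class unequally, with 31.0% and 50.7% of the cells in cluster 11, led by Ccr7 and Fscn1, and 44.9% and 22.9% in cluster 16, led by Xcr1. Within cluster 11, 2 of 15 measured genes were lower, Ndrg1 (483 and 246 CPM) and P4ha1 (50.8 and 26.3 CPM), against 5.92% of all genes there. Within cluster 16, 2 of 19 were higher, Hk2 (53.1 and 95.7 CPM) and Eno1 (89.5 and 137 CPM), against 4.38%. Within cluster 10, 1 of 16 was lower, Ndrg1, and 1 higher, Pfkfb3, against 8.70% and 9.34%.

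The order of the cell classes was compared between the libraries. Over 8 classes with at least 50 cells (the 5 above and B cell-like, plasmacytoid dendritic-like and microglia-like cells), 26 of the 34 genes had their highest level in the same class in both libraries. For 16 of these the interval stood clear of that of the next class in both. Microglia-like cells had the highest Hk2 (224 and 273 CPM), Pfkfb3 (251 and 215 CPM), Pdk1 (53.4 and 44.4 CPM) and P4ha1 (188 and 233 CPM). Dendritic-like cells led for Pfkp (544 and 476 CPM) and Ndrg1 (261 and 175 CPM). T cell-like cells led for Hk1 (72.6 and 83.9 CPM) and Ldha, and tumour-like cells led for Pgk1, Pfkm and Eno2. Gapdh, Aldoa, Gpi1, Pgam1 and Pkm were highest in macrophage-like cells. The place of tumour-like cells in this order differed for several genes: they ranked 1 of 8 for Slc16a3 in the WT-labelled library and 6 in the KO-labelled library, and 5 and 8 for Ldha.

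**Figure D5:**
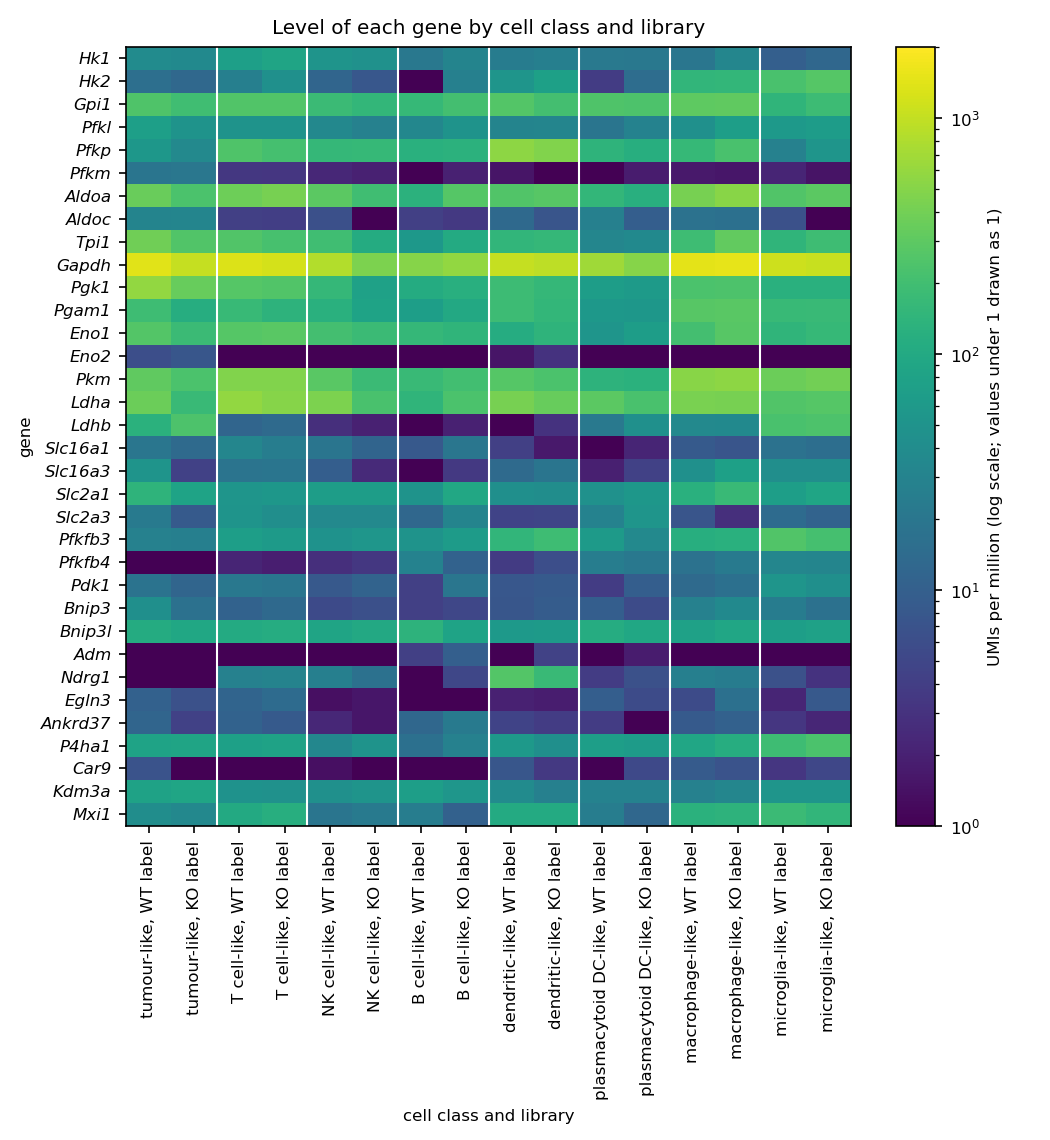
Level in CPM (log colour scale, values under 1 drawn as 1) of the 34 genes in 8 cell classes, with the library labelled wild type left and labelled knockout right in each pair. The paired columns are alike for most genes, and the tumour-like pair differs most for Slc16a3 (51.0 and 4.37 CPM) and Car9 (7.08 and 0.7999 CPM).

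The share of each hexokinase differed widely between classes. Hk1 made up 70.7% and 73.9% of hexokinase UMIs in tumour-like cells and 81.0% and 85.7% in NK cell-like cells. Its share was 11.8% (10.3 to 13.5) and 17.4% (16.1 to 18.8) in macrophage-like cells and 4.29% and 4.48% in microglia-like cells, where Hk2 predominated. Pfkp made up 94.4% and 93.6% of phosphofructokinase UMIs in dendritic-like cells and 37.7% and 33.4% in tumour-like cells, where Pfkl and Pfkm held the rest. Slc2a3 contributed 49.1% and 43.2% of the glucose transporter pair in T cell-like cells and 5.62% and 1.57% in macrophage-like cells.

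Among the brain's own cells, which were few, the transporters and hypoxia targets had levels far from those of tumour-like cells. In 20 and 34 endothelial-like cells Slc2a1, the glucose transporter of the blood-brain barrier, reached 967 and 952 CPM and Slc16a1 456 and 307 CPM, while Slc16a3 had 1 UMI in the WT-labelled library and none in the KO-labelled library. Adm had 112 and 80.6 CPM there, and at most 10.0 CPM in any of the 8 larger classes. In 34 and 103 oligodendrocyte-like cells Ndrg1 reached 756 and 670 CPM and Bnip3l 486 and 505 CPM, and Ldha was low (31.4 and 30.5 CPM). In 21 and 84 neuroblast-like cells Ldhb stood at 161 and 150 CPM, and Ldha made up 7.50% and 17.5% of the pair.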

How the data were processed

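Droplet single-cell RNA-seq (10x Genomics 3' v3.1) was deposited as UMI counts per gene and barcode for 1 library of each host genotype. The authors used Cell Ranger 7.1.0, Seurat 5.0.2 and mm10, per the submitters' processing notes; the deposited counts are raw whole numbers over 68886 genes, of which 36601 are human and were not used here. Cells had at least 500 mouse genes and at most 10% mitochondrial UMIs. A cell was placed in the class with the highest share of its fixed markers detected, with at least 4 markers and 1.2 times the share of the next class, and cells with at least 50% of the markers of 2 lineages were left out. Scrublet called 77 and 164 doublets, which were kept except in an alternative. The automatic threshold of Scrublet had marked 0.289% in the WT-labelled library, so the highest scores up to the expected number were taken there.

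UMIs were summed per class and library and divided by the class total. With 1 library a group there is no test and no p-value. Intervals are exact 95% intervals (Poisson for levels, conditional binomial for ratios, Clopper-Pearson for shares) and cover counting error only. A count of 0 was set to 3 counts in a ratio. Scripts ran in Python 3.11.15 with numpy 2.4.6, scipy 1.17.1, pandas 2.3.3, scanpy 1.11.5, scikit-learn 1.9.0, leidenalg 0.10.2, igraph 0.11.9 and matplotlib 3.10.9, and the ratio code was tested on simulated data. Clusters (Leiden, resolution 1.0, 2000 genes, 30 components, 15 neighbours) were computed without the 34 genes.

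The 34 genes, the other gene lists and the tests were chosen with earlier results of these data known. All 34 are accounted for; from each other list the text names up to 4 genes that were at least 2-fold apart in tumour-like cells and the gene with the most UMIs. Promoters came from RefSeq (GRCm38.p6), positions from GENCODE M21. Alternatives covered cell filters, classes, doublets, weighting of cells and clusters, denominators, UMI minimum, fold, division, Ptprc and sex-linked cells.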

Additional observations from a re-analysis of the deposited data

Results flagged for a closer look

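Slc16a3, Tpi1 and Egln3 were called in opposite directions in 2 classes of the same libraries, and the difference between the classes was not tested, since each genotype has 1 library. Slc16a3 had a log2 ratio (KO-labelled over WT-labelled library) of -3.55 in tumour-like cells and 0.73 in monocyte/macrophage-like cells. Tpi1 had -0.62 in tumour-like cells and 0.77 in monocyte/macrophage-like cells. Egln3 had -0.67 in tumour-like cells and 1.55 in monocyte/macrophage-like cells.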

How the results depend on the processing

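Each genotype has 1 library, so no value has a replicate error and intervals cover counting error only. No paired analysis was possible because each group holds a single library. Host cells without 2 division markers, clusters weighted alike for the isoform shares, and the tumour-like settings applied to host classes were alternatives chosen after seeing the data. Of 1219 alternatives for single genes, 1053 kept the value inside the gene's own counting interval and 165 moved it outside. Such an interval is wide for rare genes. A reversal was counted only for a gene called in the main setting, and there was 1 (Hk2 in T cell-like cells, -0.019 in Y-linked-positive cells). Changes of sign in genes that were not called are not counted as reversals. The cause was not tested for any of these shifts. Ldha, Slc16a3, Slc2a1, Slc2a3, Bnip3, Ankrd37 and Car9 stayed past 1.5-fold in tumour-like cells under all 10 alternatives that change a ratio, with Slc16a3 between -3.91 and -3.22, but Slc16a3, Ankrd37 and Car9 had under 100 UMIs in cells without 2 division markers. The counts that follow are not set beside the share of all genes at the same setting, except where a share was given above. They show how the counts move with the setting, not their distance from a background. At 2-fold the tumour-like count of lower genes was 6 and of higher genes 0, the NK cell-like count of lower genes 1, the macrophage-like count of higher genes 1, and the counts apart in T cell-like and dendritic-like cells 0 each. In cells without 2 division markers 5 genes were lower in tumour-like cells, 3 in NK cell-like and 0 in macrophage-like cells, 2 were apart in T cell-like and 2 in dendritic-like cells, and the median of the enzymes in tumour-like cells was -0.34. With clusters weighted alike no gene (0) was higher in tumour-like cells, the enzymes' median was -0.30, and the Ldha share was 65.4% and 45.8%. With every cell weighted alike 1 gene was lower in NK cell-like cells, 2 were apart in dendritic-like cells, the Ldha share was 69.1% and 37.8%, and the Slc16a3 share under the wild type label was 67.3%. With classes from clusters 4 genes were lower in NK cell-like cells and the Ldha share was 75.5% and 43.6%. In Y-linked-positive cells 0 genes were lower in macrophage-like cells, 0 were apart in T cell-like and 2 in dendritic-like cells. The dendritic-like count was 4 at a minimum of 30 UMIs, 0 at 300 UMIs, 2 with the stricter cell filter and 2 without mitochondrial and ribosomal protein genes in the denominator. At 300 UMIs the macrophage-like count of lower genes was 0. The enzymes' median was -0.51 with that denominator and -0.51 in cells with 0 Ptprc UMIs. The share of tumour-like cells with an Slc16a3 UMI was 25.8% and 6.13% without thinning and 6.04% and 0.593% at 2000 UMIs.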
